A study of Mus musculus with 16 samples.

Results

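In livers of db/db mice, 854 regions of RNA carried an N4-acetylcytidine (ac4C) peak that recurred among the db/db peak lists and was called in no list of lean mice. Each region is a stretch where peaks of the 8 deposited lists shared at least 1 bp and were merged. A region was kept if 3 or 4 of the 4 db/db lists called it and no lean list did. The 854 regions were 3.36% of the 25437 merged regions and lay in 744 of the 8602 genes with any peak (8.65%). Of these regions, 217 were called in all 4 db/db lists (0.853% of all regions) and 637 in 3 of them. The regions were thus chosen by whether a peak was called in these same lists, so the counts and folds below are a description and were not tested.

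The animals were male db/db mice and male lean controls, labelled C57BL/6. Mice called db/db carry a mutated leptin receptor in every tissue, overeat, and become obese and diabetic. The mutation is not restricted to hepatocytes, so the liver sees it together with the whole animal's obesity. The labels give neither the ages nor the strain background on which the db/db mice were kept. The series holds 16 liver samples, 8 immunoprecipitates and 8 inputs, with 4 of each kind per group. The lists are named db1, db2, db4 and db5 for db/db livers and C5 to C8 for lean livers, and were matched to a group but not to a numbered sample. Liver tissue holds several cell types, and fewer cells of a type cannot be told apart from less of an RNA per cell. A missing peak means that the caller reported none there, which depends on sequencing depth and on how much of the transcript was present, and neither was measured here.

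Acetylation of cytidine at N4 is written by NAT10, an acetyltransferase of the nucleolus that also modifies ribosomal and transfer RNA. In messenger RNA the mark has been tied to transcript stability and translation. In human cells the marked stretches of messenger RNA have been reported to be rich in runs of evenly spaced cytidines, written CNNCNNCNNCNN below, where N is any base. The antibody recovers fragments of RNA, so a peak is a stretch that holds the mark and not a single acetylated base.

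Some of the recurrent db/db regions covered an annotated transcription start, and there the sequence under the peak can be shown. The start windows of RefSeq (GRCm38.p6) held 92 annotated starts, in 88 genes, whose first 50 transcribed bases lay wholly inside one of the regions, predicted genes left out. Shown are the first 30 transcribed bases for 7 of the named genes whose region was called in all 4 db/db lists, and for Sumo3, called in 3. They show how rich in C and G these stretches are and where the run of spaced cytidines occurs. Capitals mark the spaced cytidines of CNNCNNCNNCNN at its leftmost match in these bases, on the transcribed strand, and a line without capitals holds no match.
Zfp384 (chr6:125009238-125009267, plus strand): acttccgggtgagtgtccaggagggcgggg
Atp11a (chr8:12757016-12757045, plus strand): gcgcccgtgacgcgcggggcgcagcggggc
Gnai1 (chr5:18360384-18360413, minus strand): acgggcagctgcggtggCggCggCggCggc
Nfil3 (chr13:52981010-52981039, minus strand): acacatctctcggcgCggCcaCggCgcccg
Gatad2a (chr8:69974354-69974383, minus strand): atccgggtgcgggcgggtggcgtcgccttt
Nos1ap (chr1:170589820-170589849, minus strand): aggaggagccgcgggctggcagccgatccg
Acpp (chr9:104337693-104337722, minus strand): ctcccgaaggcttctgaagtgcagcacctc
Sumo3 (chr10:77606598-77606627, plus strand): ttgggtgctggttcttggttcgcaagggcc

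Over the first 50 transcribed bases, with predicted genes included, the motif stood in 34 of 94 start windows wholly inside db/db-only regions (36.2%). It stood in 28 of 105 windows under lean-only regions (26.7%), in 142 of 370 under regions called in all 8 lists (38.4%), and in 6945 of all 32851 start windows (21.1%). On the opposite strand the shares were 53.2%, 52.4%, 62.2% and 28.98% in the same order, and C and G made up 70.9%, 69.0%, 72.0% and 56.7% of the bases. The share of windows with the motif was thus higher on the strand that is not transcribed in each of the 4 sets. Base composition moved with the motif, and its part in these shares was not tested. Matches of the motif to itself may overlap, and each window counted once.

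The count of db/db-only regions stood beside a smaller count the other way round. Regions in 3 or 4 lean lists and no db/db list numbered 604 (2.37%), of which 180 were in all 4 lean lists (0.708%) and 424 in 3. Of the 1825 regions called in exactly 4 lists, 217 (11.9%) had all 4 in db/db livers, 461 had 3 db/db and 1 lean list, 541 had a pair in each group, 426 had 1 db/db and 3 lean lists, and 180 (9.86%) had all 4 in lean livers. Of the 2665 regions called in exactly 3 lists, 637 (23.9%) were db/db only and 424 (15.9%) lean only. The db/db lists were also longer, with 8878, 9267, 9754 and 8212 peaks, against 8503, 8066, 8093 and 7583 in the lean lists. The means were 9028 ± 651 and 8061 ± 376 peaks (SD, n = 4 each), a difference of 966.5 that missed the threshold in an exact two-sided permutation test (p = 0.0571, smallest possible 0.0286). Without the db5 list, the shortest of the db/db lists, the difference was 1238 and the exact permutation p was 0.0286. Leaving out any other single list gave exact permutation p-values of 0.0571 to 0.114.

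**Figure D1:**
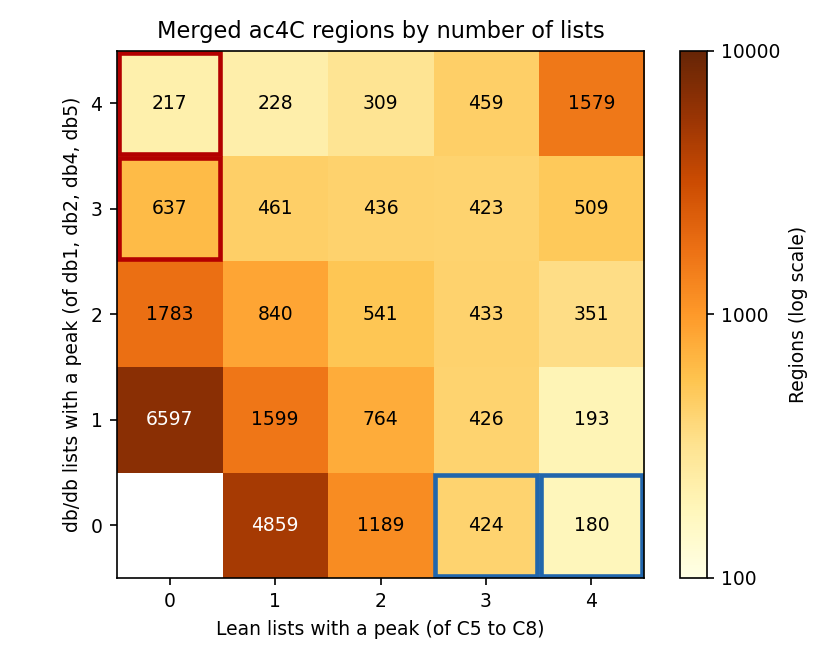
Merged regions by the number of db/db lists (vertical axis) and of lean lists (horizontal axis) that called them, with the count in each cell and colour on a log scale. The db/db-only cells (217 and 637) are outlined in red and the lean-only cells (180 and 424) in blue, and the single largest cells are regions of 1 list (6597 db/db and 4859 lean).

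The excess of db/db-only regions did not hold under every way of counting. With the same number of peaks taken from each list, there were 155 regions in all 4 db/db lists against 182 in all 4 lean lists, and 464 in 3 db/db lists against 473 in 3 lean lists. The authors' score grows with the negative logarithm of the p-value. When only peaks scoring 50 or more were kept, 55 regions were in all 4 db/db lists and 60 in all 4 lean lists. When only peaks of 4-fold or more were kept, the counts were 108 and 84. Of the 217 regions in all 4 db/db lists, 144 were again called so with lists of equal length, 43 in the 4-fold set and 7 in the set scoring 50 or more.

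Most of the recurrent db/db regions were modest peaks, and so were most lean-only regions. The authors' fold, the ratio of immunoprecipitate to background at a peak, had a median over the 217 regions of 4.09, 4.27, 4.35 and 4.15 in db1, db2, db4 and db5. In the same lists the 1579 regions called in all 8 had medians of 5.84, 6.46, 6.19 and 6.09. Over all peaks of a db/db list the median fold was 4.02 to 4.09. Ranked within their own list, peaks of the 854 regions had a median percentile of fold of 47.8 to 54.0, and peaks of regions called in all 8 lists of 81.0 to 84.6. A score of at least 50 was reached by 19.6% to 25.4% of the db/db-only peaks in a list and by 71.0% to 82.5% of peaks in regions of all 8 lists. Over all peaks of a db/db list that share was 28.1% to 33.7%. Peaks of lean-only regions had median percentiles of 41.4 to 48.7 in the lean lists, and 20.1% to 29.2% scored at least 50. Of the 2782 peaks in the 854 regions, 0 had a false discovery rate of 5% or less by the authors' column, and 99.6% had a rate of 100%, as had 99.2% of all 68356 peaks. The score reached 50 in every list that called the region for 7 of the 217 regions and 39 of the 637, and the fold reached 4 in every such list for 43 and 134.

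**Figure D2:**
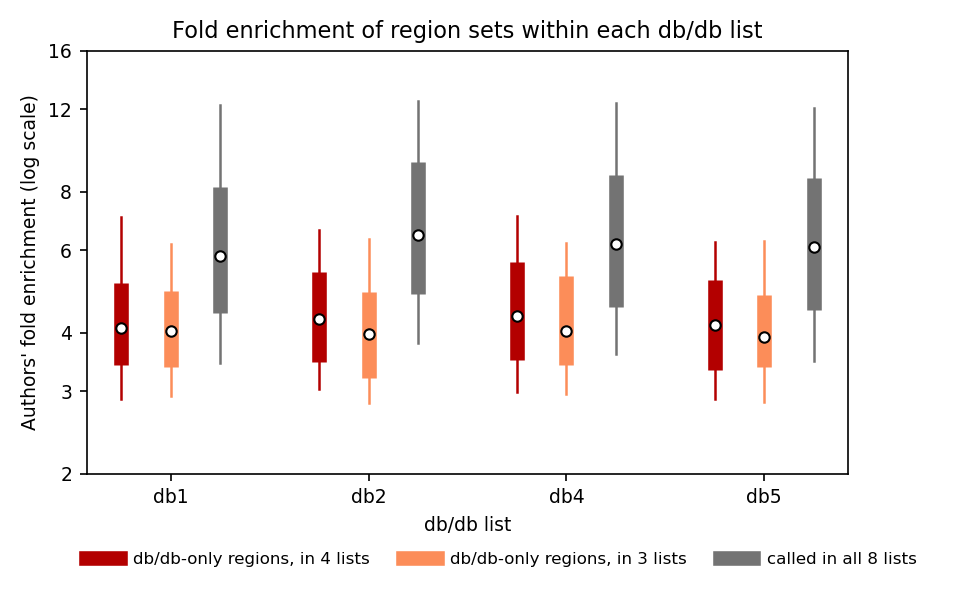
Authors' fold enrichment (log axis) in each db/db list for db/db-only regions in 4 lists, db/db-only regions in 3 lists and regions called in all 8 lists. White points are medians, thick bars span the 25th to 75th percentile and thin lines the 10th to 90th percentile. Medians of the db/db-only regions lie between 3.91 and 4.35, and those of regions in all 8 lists between 5.84 and 6.46.

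Folds of a db/db-only region varied among the db/db lists about as much as those of a region called everywhere. The highest fold over the lowest had a median of 1.72 among the 217 regions and also 1.72 among the 1579 regions of all 8 lists. The order of regions was less alike from list to list. Across the 217 regions Spearman's rho between pairs of db/db lists was 0.20 to 0.37 over 6 pairs, and across the 1579 regions it was 0.57 to 0.66. Those correlations run across regions, which are not independent replicates, and the 217 regions span a narrower range of folds.

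Among the regions called in all 4 db/db lists, the highest ranks by fold went to Tnip1, Zfp384 and Kif1b. Regions are given on mm10 and ranked by the mean percentile of their fold within each db/db list, and predicted genes were left out of the ranking. Tnip1, which encodes a partner of A20 that restrains NF-kappaB signalling, came first, with its region at chr11:54924098-54924229. Its fold was 8.18 in db1, 7.71 in db2, 14 in db4 and 7.71 in db5. The db4 value stood apart and the other db/db lists lay close together. Folds come from separate calls whose scales may differ, so differences between lists are described here and below and were not tested. Zfp384, a zinc finger transcription factor, followed at chr6:125009238-125009499, with folds of 8.52, 5.84, 6.25 and 11.79 in db1, db2, db4 and db5. Its highest value was in db5 and its lowest in db2.

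Kif1b, a kinesin motor that carries mitochondria and vesicle precursors, scored at least 235.3 in each db/db list, above the lowest score of every other region of the top 15. Its region at chr4:149226263-149226356 had folds of 7.1 in db1, 5.73 in db2, 6.82 in db4 and 8.08 in db5, a narrow range. F5, the liver-made clotting factor V, had folds of 7.52, 5.86, 7.22 and 6.71 in db1, db2, db4 and db5 at chr1:164209463-164209618. The fold varied little between lists, while the score was 13.16 in db2 and 179.8 in db1. Cpsf3, the endonuclease that cuts pre-messenger RNA before polyadenylation, had folds of 7.49, 5.54, 9.17 and 5.92 at chr12:21290248-21290311. Baz2b, a bromodomain protein of chromatin, reached 10.55 in db4 and 5.89 to 6.91 in the other db/db lists, at chr2:59961884-59962630.

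Nfil3 and Nr5a2 were the 2 genes of the top 15 in which no lean list had a peak anywhere in the gene. Nfil3 encodes a repressor that acts on clock-controlled genes, and its region at chr13:52980861-52981073, over the start shown above, had folds of 11.24 in db1, 4.76 in db2, 6.49 in db4 and 7.2 in db5. Nr5a2 encodes a nuclear receptor of bile acid and cholesterol genes, and its region at chr1:136944959-136945077 had folds of 6.24, 7.17, 6.76 and 4.76. The nearest lean peak was 51179 bp away for Nfil3 and 598854 bp for Nr5a2. The other members of the top 15 were Golga1 (a golgin of the Golgi apparatus), Nav2 (a neuron navigator protein), Atp11a (a phospholipid flippase), Gnai1 (an inhibitory G protein subunit), Fbf1 (a protein of the centriole appendages), Nedd4l (a ubiquitin ligase that acts on sodium channels) and Nacc1 (a BTB domain repressor). The Atp11a and Gnai1 regions covered the starts printed above. The Nacc1 region also lay within the bounds of Trmt1, and as the lists give no strand its reads cannot be assigned to either gene. The Fbf1 region lay 77 bp from a lean peak.

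**Figure D3:**
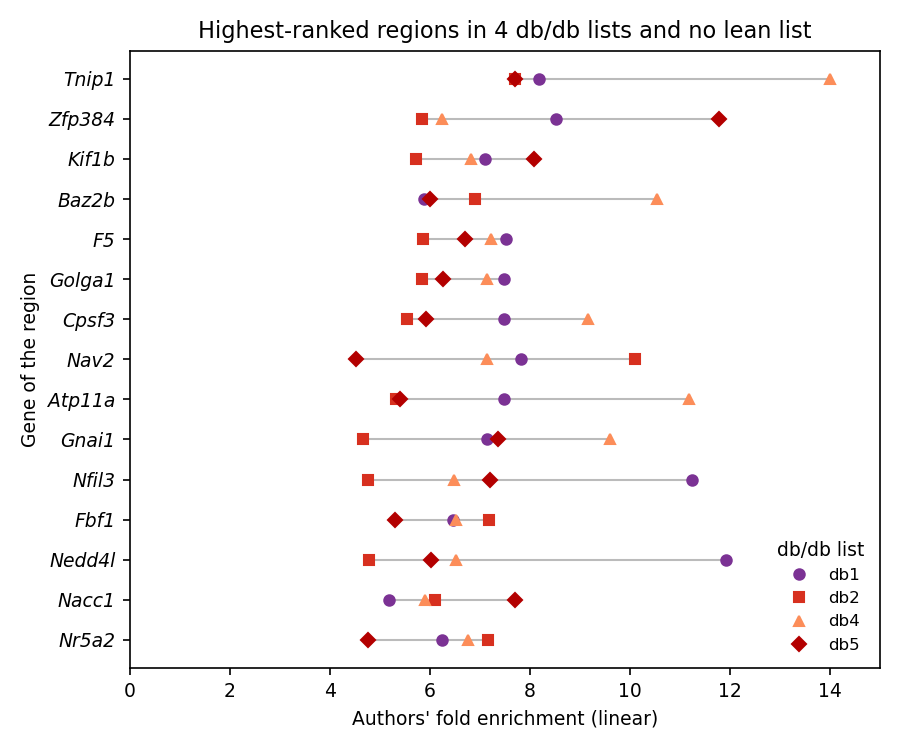
Authors' fold (linear axis) in each of the 4 db/db lists for the 15 top-ranked regions called in all 4 db/db lists and no lean list, 1 region per gene, ordered by mean within-list percentile. Each line joins the lowest and the highest list, and Tnip1 runs from 7.71 to 14 and Kif1b from 5.73 to 8.08.

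The predicted gene Gm10722, named outside the ranking after its values were seen, had the highest folds of the regions in all 4 lists, 36.11, 49.7, 64.57 and 62.2 in db1, db2, db4 and db5. Its region at chr9:3002206-3002330 lay 761 bp from a lean peak. Of the 854 regions, 20 were on predicted genes or pseudogenes, where reads of near-identical copies can be misplaced, and 833 were on protein-coding genes.

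Regions called in 3 db/db lists included the highest folds of the 854. Tmem107, a protein of the ciliary transition zone, had folds of 66.78 in db1, 46.04 in db4 and 79.58 in db5 at chr11:69072955-69073293 and no peak in db2. Its score was 3100 in each list that called it, and no lean list had a peak in the gene. The Tmem107 region ended at the annotated 3' end of the gene. Pabpc4, a cytoplasmic poly(A)-binding protein, had folds of 40.37 in db1, 42.77 in db2 and 31.31 in db5 at chr4:123291733-123291870 and no peak in db4. All 4 lean lists called another peak of Pabpc4, the nearest of them 1394 bp away. Whether reads of the Tmem107 and Pabpc4 regions came from the messenger RNA or from a small RNA missing from the annotation was not tested.

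Il1r1, the receptor of interleukin 1, had folds of 32.02 in db1, 15.34 in db2 and 11.37 in db4 at chr1:40282233-40282296, and no lean list had a peak in the gene. Upp2, the uridine phosphorylase of liver, had folds of 18.87 in db2, 21.11 in db4 and 8.75 in db5 at chr2:58771421-58771579 and no lean peak in the gene. Sult2a7, a sulphotransferase, had folds of 15.51 in db2, 15.68 in db4 and 10.79 in db5 at chr7:14491718-14491926. Sult2a7 and Serpina3g, a protease inhibitor gene also in the top 8, belong to clusters of near-identical genes, so reads may be split or misplaced among the copies. Sumo3 and Pias2, a ubiquitin-like modifier and a ligase that attaches such modifiers, completed the 8, with folds of 10.18 to 14.27 for Sumo3. A lean peak lay 220 bp from the Sumo3 region and 260 bp from that of Pias2.

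The list left out of the 3 was db1 in 237 of the 637 regions, db2 in 122, db4 in 113 and db5 in 165. The regions were therefore missing most often from db1. Regions of the fixed pathway lists leaned the same way, with 27 of 47 regions in 3 lists missing from db1, 6 from db2, 5 from db4 and 9 from db5. In db1, 617 of the 854 regions were called, 6.97% of the regions of that list, against 732 (7.92%), 741 (7.61%) and 689 (8.40%) in db2, db4 and db5.

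Most of the db/db-only regions lay in genes in which a lean list also called a peak, at another site. A lean list had a peak elsewhere in the same gene for 626 of the 854 regions (73.3%, Wilson interval 70.2% to 76.2%, counting error only). For 302 regions (35.4%) all 4 lean lists had a peak in the gene, and for 228 (26.7%) none had. For the lean-only regions, a db/db list had a peak elsewhere in the gene for 470 of 604 (77.8%, 74.3% to 80.9%). Genes with either kind had a median of 4 regions, against 2 for all genes with a peak. The same share over all regions was not computed. Among the 744 genes with a db/db-only region, 198 had no lean peak at all. The nearest lean peak was 9906 bp away at the median (quartiles 2496 and 38414 bp), against 7436 bp from a lean-only region to the nearest db/db peak. The db/db lists held more peaks to be found nearby, a mean of 9028 against 8061 per list. The part of list length in these distances and shares was not tested. Only 6 of the 854 regions had a lean peak within 100 bp, 37 within 500 bp and 94 (11.01%) within 1000 bp.

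**Figure D4:**
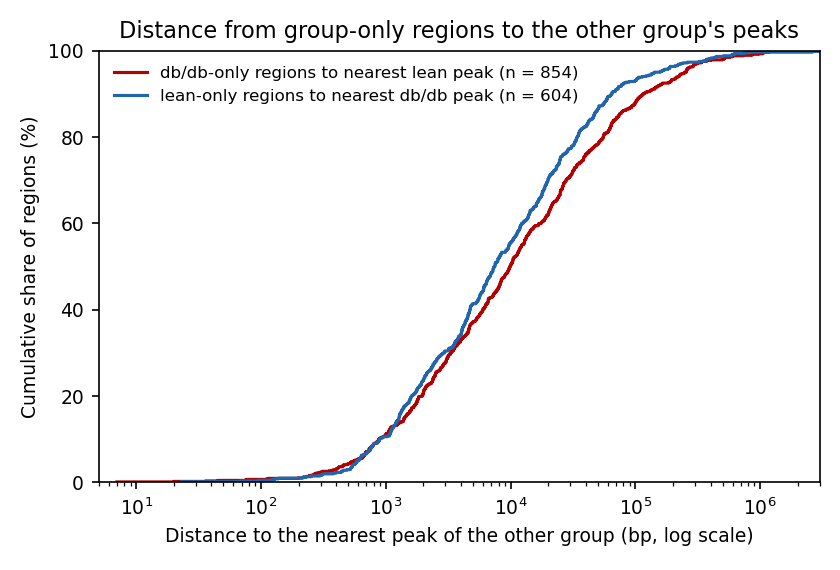
Cumulative share of regions (%) by distance to the nearest peak of the other group (bp, log axis), for 854 db/db-only regions (red) and 604 lean-only regions (blue). Both curves reach about 11% at 1000 bp, and their medians are 9906 and 7436 bp. The db/db lists, to which the blue curve is measured, hold more peaks than the lean lists.

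Several genes held more than 1 db/db-only region. There were 88 such genes, of which 11 held 3 or more, and the most was 5, in Agap1, Dst and Upp2. Genes with a db/db-only region had a median of 4 regions of any kind, as did genes with a lean-only region, and all genes with a peak had a median of 2. In Upp2 all 5 regions were called in db2, db4 and db5 and missing from db1, between 58754942 and 58780148 on chromosome 2. The folds ran from 4.42 to 21.11, and no lean list had a peak in the gene. In Agap1, which regulates membrane traffic through ARF proteins, 2 of the 5 regions were in all 4 db/db lists, at chr1:89663661-89663788 and chr1:89665034-89665189, with folds of 3.13 to 4.66 and 4.09 to 7.45. A single lean list had a peak in Agap1. In Dst, a large linker of the cytoskeleton, the 1 region in all 4 db/db lists (chr1:34274168-34274338) had folds of 6.88, 4.77, 5.45 and 5.89 in db1, db2, db4 and db5, and all 4 lean lists had peaks elsewhere in the gene.

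Tnip1 held 4 such regions, 3 of them in all 4 db/db lists. Beside the region described above, that at chr11:54918606-54918737 had folds of 3.6, 5.69, 5.9 and 4.65 in db1, db2, db4 and db5, with a lean peak 680 bp away. That at chr11:54937947-54938065 had 5.45, 3.99, 4.05 and 3.72. Col4a2, a collagen of basement membranes, Mug2, a plasma protease inhibitor of the murinoglobulins, Nos1ap, an adaptor of nitric oxide synthase, and Ppl, which encodes the desmosome protein periplakin, also held 4 each. The Nos1ap region over the start shown above (chr1:170589260-170589861) had folds of 7.27, 6.15, 3.91 and 2.98, highest in db1 and lowest in db5. The 4 regions of Mug2 had folds of 4.02 to 10.35 and lie in a family of near-identical genes. In Ppl no lean list had a peak, and none of the 4 regions was called in all 4 db/db lists.

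Kdm2b, a histone demethylase, Plekhm2, which couples lysosomes to kinesin, and Mgmt, a DNA repair enzyme, held 3 each. Both Plekhm2 regions in all 4 db/db lists had folds of 3.41 to 7.14. Mgmt and Acpp, an acid phosphatase with 2 regions in all 4 db/db lists, had no lean peak. The Acpp region at chr9:104324643-104324729 had folds of 4.43, 5.8, 5.26 and 5.54 in db1, db2, db4 and db5, and that over its start (chr9:104337543-104337728) had 3.07, 4.33, 3.86 and 4.19. In Acpp the region over the start had the lower fold in each of the 4 lists.

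In 59 genes a db/db-only region stood beside a lean-only region, 7.93% of the genes with a db/db-only region and 10.7% of those with a lean-only region. Of all genes with a peak, 8.65% held a db/db-only region and 6.42% a lean-only one, and genes with either kind had more regions in all, a median of 4 against 2. In 3 genes, Kif13a, Gtf2f1 and Baz2b, each kind had at least 1 region called in every list of its group. Kif13a encodes a kinesin of endosome traffic. Its regions at chr13:46778894-46778993 and chr13:46785246-46785392 had db/db folds of 3.46 to 5.11 and 2.73 to 3.86, and its lean-only region at chr13:46815210-46815422 had lean folds of 2.41 to 3.29.

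Gtf2f1, a subunit of the general transcription factor TFIIF, had db/db folds of 3.07, 3.99, 3.39 and 5.54 at chr17:57009688-57009760 and lean folds of 3.9, 4.03, 2.59 and 3.77 in C5 to C8 at chr17:57005360-57005544. Baz2b had lean folds of 5.71, 4.64, 4.1 and 4.02 in C5 to C8 at chr2:59942938-59943030, between its db/db-only regions. In Adck3, a kinase-like protein of coenzyme Q synthesis, the sites were close. The db/db-only region at chr1:180182062-180182247 (folds of 4.56 in db2, 10.9 in db4 and 10.35 in db5) ended 215 bp before a lean-only region at chr1:180182463-180182710 (7.31, 8.7, 10.16 and 7.61 in C5 to C8). Ikbkb, the kinase that activates NF-kappaB, had a db/db-only region at chr8:22674963-22675070 in 3 lists (folds of 4.66 to 6.07) and a lean-only region at chr8:22705828-22706204 in all 4 lean lists (3.26 to 4.89). Zfp384, Gatad2a (a subunit of the NuRD complex) and Cyp2c69 (a cytochrome P450 with near-identical copies) also held both kinds.

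Genes of fat and sterol handling were among those with a db/db-only region. The gene lists used here were written with earlier results of these data known, so their shares are not independent evidence of direction. Of 305 genes with a peak in 18 pathway lists, 49 (16.1%) held a db/db-only region and 22 (7.21%) a lean-only region, beside 8.65% and 6.42% of all genes with a peak. A gene with more regions has more chances to hold either kind, and the share over all regions of these lists was not computed. Fatty acid and triglyceride synthesis had 5 of 23 genes with a db/db-only region and 2 of 23 with a lean-only one (Elovl5 and Me1). Of the 71 regions of that list, 7.04% were db/db only and 2.82% lean only, beside 3.36% and 2.37% of all regions. Elovl6, which lengthens palmitate, had the widest of the 854 db/db-only regions, 5436 bp at chr3:129633060-129638495, with folds of 11.96 in db2, 11.72 in db4 and 8.82 in db5. Fads2, a desaturase of polyunsaturated fatty acids, had folds of 4.75, 7.34 and 3.41 in db2, db4 and db5 at chr19:10101223-10101503. Acly, which supplies cytosolic acetyl-CoA, completed the 3 regions called in 3 lists. No db1 peak was called in any of these 3 regions, and no lean peak anywhere in the 3 genes.

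Lpin1 and Acacb held regions in all 4 db/db lists. Lpin1, the phosphatase that makes diacylglycerol, had folds of 2.66, 6.65, 4.93 and 3.33 in db1, db2, db4 and db5 at chr12:16565391-16565697, with no lean peak in the gene. Acacb, the acetyl-CoA carboxylase of the mitochondrial surface, had folds of 2.45, 4.52, 6.07 and 4.18 at chr5:114212651-114212751, with peaks elsewhere in the gene in all 4 lean lists. In both genes db1 had the lowest fold. Lists of lipid droplets with fatty acid uptake and of fatty acid oxidation had no gene with a db/db-only region, of 16 and 13 with a peak, and 1 each with a lean-only region. Over all genes with a peak the shares were 8.65% and 6.42%, and the difference from such short lists was not tested.

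Cholesterol and bile acid handling had 4 of 21 genes with a db/db-only region and 0 of 21 with a lean-only one, beside 8.65% and 6.42% of all genes with a peak. Of the 60 regions of this list, 6 (10%) were db/db only and 0 lean only, beside 3.36% and 2.37% of all regions. The lists are short, and these differences were not tested. Besides Nr5a2, these included Soat2, which esterifies cholesterol, and Abcg5, a subunit of the sterol exporter. Abcg5 had 2 regions called in db2, db4 and db5, at chr17:84671122-84671251 and chr17:84672154-84672293, with folds of 2.33 to 4.09. In Abcg5, 1 lean list had a peak elsewhere in the gene. Soat2 had folds of 4.09 in db1, 3.73 in db4 and 3.49 in db5 at chr15:102153148-102153284. In Soat2, 2 lean lists had a peak elsewhere in the gene, and the nearest lean peak lay 676 bp away. Nr5a2 held a second region at chr1:136952102-136952164, called in db1, db2 and db4 at folds of 3.72 to 6.01.

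Xenobiotic metabolism had 3 of only 7 genes with a peak, Cyp1a2, Cyp2b10 and Ahr, and antioxidant defence 2 of 11, Cat and Gsr, and neither list had a gene with a lean-only region. Over all genes with a peak the shares were 8.65% and 6.42%. Of the regions of these lists, 3 of 14 and 2 of 22 were db/db only, beside 3.36% of all regions. Cat, which encodes catalase, had the highest scores of the list members, 509.2 to 1397, with folds of 6.43 in db2, 7.64 in db4 and 6.12 in db5 at chr2:103476749-103476920. Cyp1a2, a cytochrome P450 that oxidises aromatic amines, had folds of 5.21, 4.58 and 4.67, and Cyp2b10, a phenobarbital-inducible one, had 3.09, 6.78 and 8.68 in db2, db4 and db5. Both P450 genes and Cat lacked a db1 peak in the region and a lean peak anywhere in the gene. Ahr, the receptor that induces Cyp1a2, and Gsr, glutathione reductase, were missing from db2, with folds of 2.92 to 3.89 and 4.94 to 6.8. In each of Ahr and Gsr, 3 lean lists had a peak elsewhere in the gene. How much of each transcript the inputs held was not used here, and its part in these calls was not tested.

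**Figure D5:**
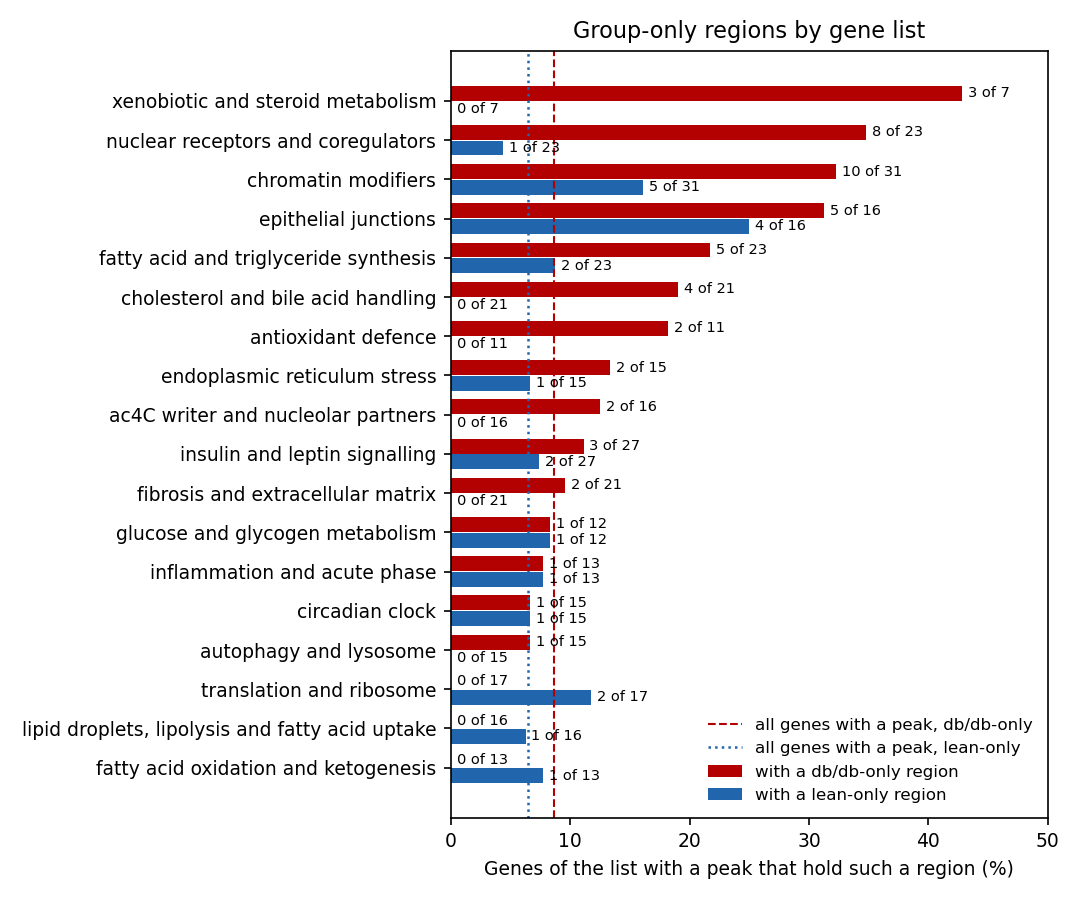
Share of the genes with a peak in each of 18 gene lists that hold a db/db-only region (red) or a lean-only region (blue), with counts beside the bars and lines at the shares over all genes with a peak (8.65% and 6.42%). Xenobiotic metabolism (3 of 7), nuclear receptors and coregulators (8 of 23) and chromatin modifiers (10 of 31) have the longest red bars. Bars count genes, and a gene with more regions has more chances to hold either kind.

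Nuclear receptors with their coregulators had 8 of 23 genes with a db/db-only region and 1 of 23 with a lean-only region. Beside Nr5a2, the receptors were Hnf4a, a master regulator of hepatocyte genes, Thra, a thyroid hormone receptor, and Esr1, an oestrogen receptor. Hnf4a had folds of 3.81 in db1, 4.98 in db2 and 4.15 in db5 at chr2:163568887-163569039, and Thra had 3.72, 5.6 and 8.04 in db2, db4 and db5 at chr11:98764278-98765111. All 4 lean lists had a peak elsewhere in Thra, and the nearest lean peak lay 490 bp from its region. Esr1 had 3.36, 4.56 and 3.03 in db1, db2 and db4 at chr10:4712313-4712847. Lean peaks elsewhere in the gene were called in 1 list for Hnf4a and 2 lists for Esr1. The coregulators Ncoa1, Ncoa3 and Ncor1 each had 1 region, at folds of 2.48 to 4.04, and all 4 lean lists had peaks elsewhere in each of them. The 144 regions of this list included 9 db/db-only ones (6.25%) and 1 lean-only one, in Ncoa1, beside 3.36% and 2.37% of all regions.

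Chromatin modifiers had 10 of 31 genes with a db/db-only region and 5 of 31 with a lean-only one. As shares of the list's 233 regions these were 12 db/db-only regions (5.15%) and 5 lean-only regions (2.15%), beside 3.36% and 2.37% of all regions. Kmt2a, a histone methyltransferase, had a region of 4188 bp in all 4 db/db lists at chr9:44818283-44822470, with folds of 3.02, 4.27, 4.01 and 3.25. Dnmt3a, a DNA methyltransferase, had folds of 4.33, 5.23, 3.67 and 4.82 at chr12:3907606-3908608, and Kdm3b, a histone demethylase, 3.07, 5.85, 9 and 4.82 in db1, db2, db4 and db5. The lists' order of folds differed from gene to gene. Lean lists with a peak elsewhere in the gene numbered 4 for Kmt2a, 4 for Kdm3b and 1 for Dnmt3a. Chd7 and Kdm2a held both kinds of region.

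Epithelial junction genes had 5 of 16 with a db/db-only region (Cgn, Dsp, Inadl, Pard3 and Ppl) and 4 of 16 with a lean-only region. Of the 120 regions of this list, 8.33% were db/db only and 5% lean only, beside 3.36% and 2.37% of all regions. Inadl, a scaffold of tight junctions, had folds of 7.15, 5.16, 12.33 and 3.25 in db1, db2, db4 and db5 at chr4:98491538-98491747 and no lean peak. Dsp, the desmosome protein desmoplakin, had 4.07, 4.18, 3.04 and 3.09 at chr13:38177187-38177282. All 4 lean lists had a peak elsewhere in Dsp. Genes of translation and the ribosome had 0 of 17 with a db/db-only region and 2 of 17 with a lean-only one, Eif5 and Rpl32. Over all genes with a peak the shares were 8.65% and 6.42%, and the difference from so short a list was not tested.

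Of the writer and its nucleolar partners, 2 of 16 genes with a peak held a db/db-only region and none a lean-only one. Of the 67 regions of this list, 2.99% were db/db only, near the 3.36% of all regions. Naf1, which helps assemble box H/ACA particles, had folds of 3.41, 6.38, 7.76 and 7.96 in db1, db2, db4 and db5 at chr8:66860217-66861046, lowest in db1, with no lean peak. Nop58, a core protein of box C/D particles, had 8.99, 4.93 and 11.03 in db2, db4 and db5 at chr1:59704624-59704750, with a lean peak 415 bp away. Nat10 itself held no region of either kind.

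Insulin and leptin signalling had 3 of 27 genes (Tsc1, Mtor and Igfbp2) and 2 of 27 with a lean-only region (Insr and Pik3ca), shares near those of all genes. Tsc1, an inhibitor of mTOR complex signalling, had folds of 4.31, 3.12, 5.28 and 3.63 in all 4 db/db lists at chr2:28685723-28685910. All 4 lean lists had a peak elsewhere in Tsc1. Lepr, the receptor mutated in these mice, had 1 region, called in a single db/db list, and it was not a member. Endoplasmic reticulum stress had 2 of 15 genes with a db/db-only region, the sensor kinases Eif2ak3 and Ern1, and 1 with a lean-only one, Canx. Eif2ak3 had folds of 3.07, 4.67, 3.9 and 2.83 in db1, db2, db4 and db5, and Ern1 had 2.99 to 4.98 in 3 lists. Lean lists with a peak elsewhere in the gene numbered 2 for Eif2ak3 and 4 for Ern1. Glucose metabolism had 1 of 12 genes with a db/db-only region (Pfkl) and 1 of 12 with a lean-only one (Gbe1). The clock had 1 of 15 (Nfil3) and 1 of 15 (Per2). Autophagy had 1 of 15 (Gaa) and fibrosis 2 of 21 (Col4a2 and Lamc1), both without a lean-only gene. Over all genes with a peak the shares were 8.65% and 6.42%.

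Markers of liver cell types with a db/db-only region were few in number, as were the markers with any peak, and 8.65% of all genes with a peak held such a region. Hepatocyte markers had 2 of 4 genes with a peak (Hnf4a among them), stellate cell markers 1 of 11 (Reln, in all 4 db/db lists at folds of 2.62 to 3.38) and lymphocyte markers 1 of 3 (Cd74, at folds of 3.51 to 6.21 in db1, db2 and db4). Kupffer cell, sinusoidal endothelial and cholangiocyte markers had none, of 9, 10 and 6 with a peak. Lean-only regions were found in Timd4 among the Kupffer cell markers, Stab2 and Egfl7 among the endothelial ones and Sox9 among the cholangiocyte ones. Only 4 of the 12 hepatocyte markers had a peak in any list, so the lists do not measure how much of each cell type a sample held.

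The db/db-only regions were narrow. Their median width was 164.5 bp (quartiles 118 and 268.8 bp), against 195 bp for lean-only regions, 206 bp for regions in all 8 lists and 176 bp for all regions. Single peaks in them had median widths of 160 to 164 bp in the 4 db/db lists, and single peaks of lean-only regions 190 to 200 bp in the 4 lean lists. The ranges of these list medians did not overlap. All peaks of the lists differed the same way, with median widths of 177 to 180 bp in the db/db lists and 183 to 195 bp in the lean lists. Only 24 db/db-only regions exceeded 1000 bp, the widest being those of Elovl6, Gpatch8 (4759 bp) and Kmt2a. The Gpatch8 region, in a gene of a G-patch domain protein, had folds of 4.75, 8.35, 8.57 and 3.56 in db1, db2, db4 and db5.

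Where in the gene the regions lay could be read only in part. A region overlapped either annotated end of its gene in 74 of the 831 db/db-only regions within RefSeq bounds (8.90%), in 80 of 592 lean-only regions (13.5%), in 258 of 1535 regions of all 8 lists (16.8%) and in 2178 of all 24824 (8.77%). The check of position from the start to the end of the transcript is void, because a strand was known for only 76.8% of the db/db-only regions. Exons, introns and untranslated parts were not used here. Of the 854 regions, 55 (6.44%) overlapped a second RefSeq gene, 21 of them a protein-coding one. None overlapped a gene that RefSeq lists as a small nucleolar, transfer, ribosomal or small nuclear RNA. Small RNAs missing from that annotation would not be counted. None overlapped any of 1005 miRNA hairpins. The share of regions that were db/db only ran from 2.66% on chromosome 10 to 4.06% on chromosome 1 over the 19 autosomes.

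Regions kept out by 1 lean list ranked near those inside the rule, and regions of fewer db/db lists ranked lower. Regions in 4 db/db lists and 1 lean list numbered 228, with a median percentile of db/db fold of 60.6, beside 56.0 for the 217 in 4 db/db lists and none of the lean. Regions in 3 db/db lists and no lean list had a median of 48.5, and the 461 with 1 lean list had 46.5. The 1783 regions in a pair of db/db lists and no lean list had a median of 35.6. Kif13a, at chr13:46929567-46929718, had db/db folds of 13.63, 13.02, 10.55 and 7.73 and was outside because C6 called it at a fold of 4.88. Slc35d1, a nucleotide sugar transporter gene, had db/db folds of 8.63 to 13.67 at chr4:103203084-103204148 and a fold of 24.07 in C8. Trim7 and Ttc7b were outside for a lean fold of 4.17 in C5 and of 2.41 in C7. Zfp791 had folds of 2140 in db1 and 1733 in db5 at chr8:85112210-85112270 and was called in no other list.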

How the data were processed

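RNA immunoprecipitated for ac4C and input RNA from livers were sequenced, and the values used were 8 deposited peak lists. The submitters' processing notes name cutadapt 1.9.3, HISAT2 2.0.4 and the build mm10. The caller named in the deposited peak names is MACS. Its version, its use of the input and any pooling of samples are not given in the sources used here. Each list gives peak positions and widths (bp), a score, a fold (a linear ratio) and a false discovery rate in percent, as deposited by the authors. The deposited score is the authors' negative decimal logarithm of the p-value times 10, in every row, and the lowest score and fold were 13.02 and 2. Files without read counts leave the depth unknown, so no depth or counting interval per peak is given. Starts were counted from 0 in the files and are printed from 1.

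Peaks sharing 1 bp were merged in Python 3.11.15 with pandas 2.3.3, and a region took its most frequent gene name. Where a list had several peaks in a region, the highest fold was used. Folds come from separate calls, so peaks were ranked only within a list, and differences in fold between lists are description. Lists were assigned to groups by name, with C taken as the lean control. The labels do not say that the samples are separate animals, so the p-value measures spread among samples that may be technical. The members, gene lists and rules for naming genes were chosen with earlier results of these data known. Named were the 15 regions in 4 lists and the 8 in 3 with the highest mean within-list percentile of fold (1 per gene, predicted genes left out), up to 10 genes with several regions, up to 8 with both kinds, up to 4 members per gene list, the 3 widest regions, and 4 just outside on each side. Some genes that these rules select are not reported here. Gene lists numbered 18 of pathways and 6 of cell type markers. RefSeq identifiers (GRCm38.p6, the assembly of mm10) matched 98.0% of peaks. The counting was tested on simulated lists. Alternatives were the merging rule, a minimum score or fold, equal list lengths and leaving out each list. Region counts were not recomputed under other assignments of the 8 lists to 2 groups of 4.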

Additional observations from a re-analysis of the deposited data

Results flagged for a closer look

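Of the 46 named regions called in all 4 db/db lists, 1 had a list far from the others. In the Tnip1 region at chr11:54924098-54924229 the fold was 14 in db4, against 7.71 to 8.18 in the other db/db lists. Chance alone sets apart about 1 in 20 such groups of 4 values. The region's scores were 245.4 in db4 and 68.98 to 91.38 in the other db/db lists.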

How the results depend on the processing

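Of 88 recomputed values, 54 stayed close to the reported ones and 34 moved further, and the difference in peaks per list kept its sign. Which group held more regions turned with equal list lengths (155 db/db-only against 182 lean-only in 4 lists, 464 against 473 in 3) and, for 4 lists, at a high score. At a score of at least 50, regions in 4 and in 3 lists numbered 55 and 177 for db/db only, against 60 and 168 for lean only. With 4-fold peaks or higher the counts were 108 and 335, against 84 and 249. Leaving out each list in turn gave 261 to 454 and 746 to 1407 db/db-only regions, and 216 to 318 and 505 to 969 lean-only regions, where a shorter group needs fewer lists. The highest count for all db/db lists, 454, came without db1. The share of regions whose gene had a lean peak elsewhere was 53.0% at that score, 57.6% at that fold and 69.95% with equal list lengths, and 70.2% to 75.1% without each list. Fewer lean peaks are left under each filter. The median width was 167 bp with peaks linked only at 50% of both, 190 bp at that score, 193 bp at that fold, 170 bp with equal lengths and 163 to 168 bp without each list. The difference in peaks per list ran from 724.4 to 1238 without each list, and only without db5 did it pass (exact permutation p = 0.0286). Without any other list the exact permutation p was 0.0571 to 0.114. At a score of at least 50 the difference was 103.25 (exact permutation p = 0.514). With 4-fold peaks or higher it was 400.5 (exact permutation p = 0.114). Linking at 50%, or merging peaks up to 100 bp apart, gave 213 and 215 regions in 4 db/db lists. No paired analysis was possible because the db/db and lean list names share only the number 5, and db5 and C5 to C8 match no sample title. Depth and transcript level behind an absent peak are unknown.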
